A study of Homo sapiens with 26 samples.

Results

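The comparison set knockdown of TMEM259 against knockdown of FIBP in 786-O, a VHL-deficient human cell line from a clear cell renal carcinoma. It used 8 of the series' 26 libraries, 4 of TMEM259 knockdown (labelled C19orf6 in the sample titles; siRNA 5 and siRNA 6, 2 libraries each) and 4 of FIBP knockdown (siRNA 6 and siRNA 7, 2 libraries each). The 2 control libraries of the same table, from cells given a non-targeting siRNA, show the levels without either knockdown. All 10 libraries came from 1 unmodified cell line at atmospheric oxygen, transfected by lipid reagent, split 24 h later and harvested at 48 h, so every group shares the VHL loss of the line and the knockdowns are transient. The series chose its targets as genes of nuclear speckle proteins and set each against a non-targeting siRNA, and the direct comparison between these targets is the one described here. Genes were taken in when their mean over the table was at least 10 units of normalized signal (gene counts that the authors divided by a size factor per library), which left 11768 of 12140 genes. ZFP82 lay just inside that limit with a mean of 10, and MAP1A just outside with 9.997. The greatest weight was put on genes for which both siRNAs of one target lay apart from both siRNAs of the other.

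TMEM259 encodes membralin, a membrane protein of the endoplasmic reticulum that works with the ubiquitin ligase RNF185 in ER-associated degradation (ERAD), the removal of faulty or surplus membrane proteins. FIBP encodes the acidic FGF intracellular binding protein, named for its binding of FGF1 inside cells. FGF receptors signal through adaptors and the RAS, RAF, MEK and ERK kinases to transcription of ETS factors and of feedback inhibitors such as the DUSP phosphatases and SPRY proteins. VHL-null renal carcinoma cells keep hypoxia-inducible factors active, so that their HIF target genes are on at normal oxygen.

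Gene reads per library ranged from 8966609 to 17018483. Libraries of the same siRNA differed by more than counting error, with a chi-square per degree of freedom of 1.52 to 1.86 over genes. The labels do not say whether the 2 libraries of an siRNA came from separate transfections, so p-values measure the spread between libraries, which may be technical. In bulk RNA, fewer cells of a state and less RNA per cell cannot be told apart. Of the kidney lineage and tubule markers, 14 of 20 were in the table, VIM, KRT18, KRT8 and PAX8 among them. Of the 13 that passed the filter, 8 were higher and 1 lower in TMEM259 than in FIBP knockdown by the means (limma, adjusted p below 0.05), with a median log2 difference of 0.12, and VIM, higher by 0.12, was at -0.061 after quantile normalization. Of markers of other cell types, 2 of 12 for leukocytes (CD68 and CSF1R), 0 of 10 for endothelium and 3 of 9 for fibroblasts (COL1A1, LUM and PDGFRB) were in it, while the defining PTPRC, PECAM1 and COL1A2 were not listed. The summed signal of the 3 fibroblast markers ranged from 90.8 to 111 in TMEM259 knockdown, from 40.6 to 116 in FIBP knockdown and from 93.2 to 109 in control cells. The part of these genes in the results was not tested.

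Each siRNA lowered its own target. TMEM259 had a normalized signal of 659 and 679 with TMEM259 siRNA 5, 1045 and 1089.9 with TMEM259 siRNA 6, 2299 and 2368 with FIBP siRNA 6, 2283 and 2427 with FIBP siRNA 7, and 2269.6 and 2148 in control cells. The 4 TMEM259 knockdown libraries lay below all 6 others, and siRNA 5 left less of the mRNA (30.3% of the control mean) than siRNA 6 (48.3%). The difference between targets was -1.47 ± 0.036 (SE, adjusted p = 2.20e-32, limma) on the log2 scale. FIBP stood at 519 and 556 with TMEM259 siRNA 5, 401 and 372 with TMEM259 siRNA 6, 51.6 and 66.7 with FIBP siRNA 6, 103 and 81.2 with FIBP siRNA 7, and 539 and 541 in control cells. FIBP siRNA 6 left 11.0% and FIBP siRNA 7 left 17.1% of the control mean, and the difference between targets was 2.62 ± 0.081 (SE, adjusted p = 1.64e-28, limma). FIBP mRNA was also lower with TMEM259 siRNA 6 than in control cells (log2 -0.48, adjusted p = 0.00176, limma), and its difference from control with TMEM259 siRNA 5 did not pass the threshold (-0.0072, adjusted p = 0.974). The knockdowns were therefore unequal in depth, with a larger share of its mRNA left for TMEM259 than for FIBP.

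**Figure D1:**
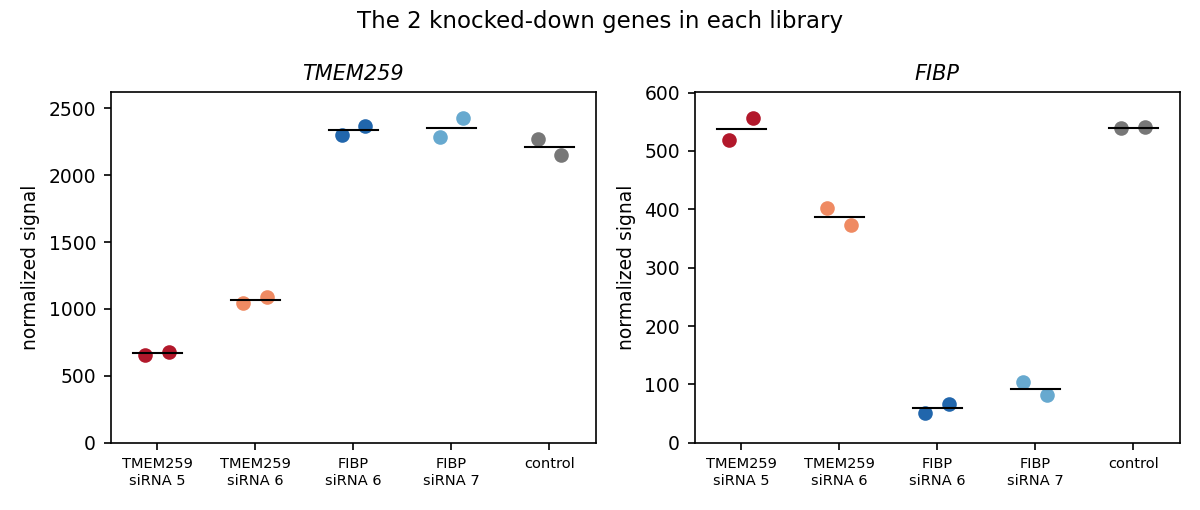
Normalized signal of TMEM259 (left) and FIBP (right) in each library, with points for libraries and bars for the mean of each pair. TMEM259 mRNA is low with both of its siRNAs and lower with siRNA 5, and FIBP mRNA is low with both of its siRNAs and intermediate with TMEM259 siRNA 6.

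Between the means of the targets, 4366 of 11768 genes were called (37.1%; limma, Benjamini-Hochberg adjusted p below 0.05), 2214 higher (18.8%) and 2152 lower (18.3%) in TMEM259 than in FIBP knockdown. The siRNAs of one target differed from each other about as widely. TMEM259 siRNA 5 and siRNA 6 differed in 3776 genes (32.1%), and FIBP siRNA 7 and siRNA 6 in 4197 genes (35.7%). The median absolute log2 difference over all genes was 0.12 between targets, 0.15 between the TMEM259 siRNAs and 0.16 between the FIBP siRNAs. Of the 4366 genes, 2956 (67.7%) were also called between the siRNAs of at least 1 target. The same share over all genes is not given here, and it is at least the 35.7% of the FIBP siRNAs alone. The call for the means alone therefore does not separate a target from its siRNAs, and the genes below are those called with the same sign in all 4 pairs of a TMEM259 siRNA with a FIBP siRNA.

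The single pairs gave 3838 calls (32.6%) for TMEM259 siRNA 5 against FIBP siRNA 6, 5018 (42.6%) for TMEM259 siRNA 5 against FIBP siRNA 7, 3352 (28.5%) for TMEM259 siRNA 6 against FIBP siRNA 6 and 4234 (36%) for TMEM259 siRNA 6 against FIBP siRNA 7. The rule on all 4 left 488 genes (4.15%), 252 higher (2.14%) and 236 lower (2.01%) in TMEM259 knockdown. In 462 of the 488, the difference between targets exceeded both differences between siRNAs of a target. In 485, the 4 TMEM259 libraries did not overlap the 4 FIBP libraries. The rule on all 4 pairs favours both outcomes, so these counts describe the chosen genes and are no further support. Over all genes, 798 had their 4 TMEM259 libraries all above the 4 FIBP libraries (6.78%) and 831 had them all below (7.06%). Without FIBP siRNA 6 replicate 1, 164 genes were higher and 163 lower in all 4 pairs. The 488 differences were mostly modest, with a median absolute log2 value of 0.35, and 18 of them exceeded 2-fold. The median signal was 836 for the 488, against 402 over all genes tested. With each siRNA reduced to the mean of its libraries, so that 2 siRNAs stood against 2, limma called 0 genes after adjustment, TMEM259 and FIBP themselves included, and 626 at an unadjusted p below 0.05, of which 335 were among the 488.

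**Figure D2:**
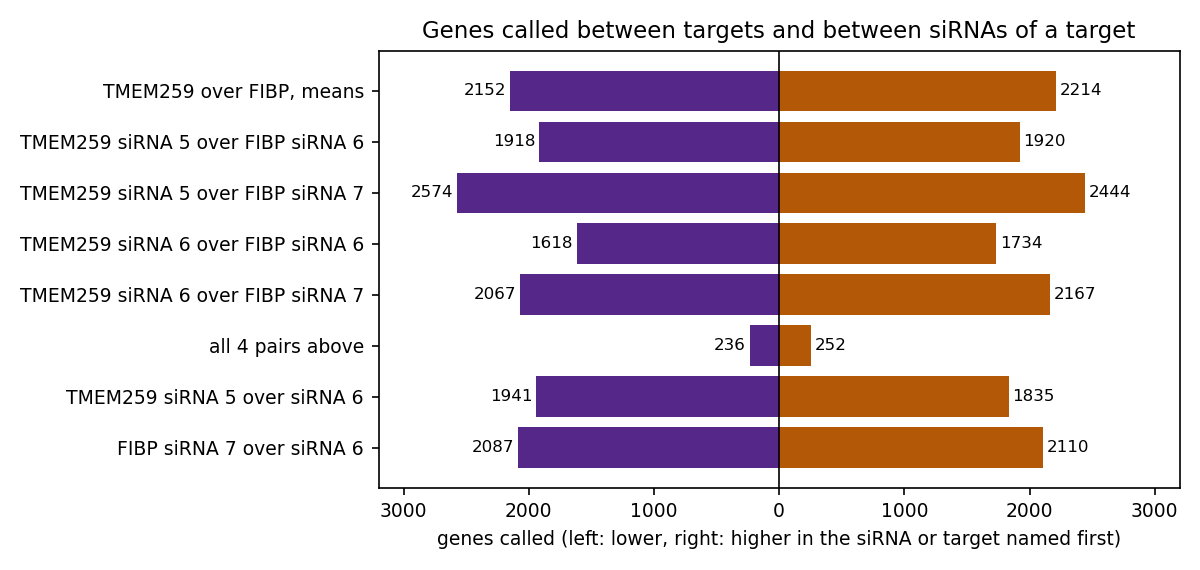
Number of genes called (limma, adjusted p below 0.05) as higher (right) or lower (left) in the siRNA or target named first. The differences between siRNAs of one target (lowest 2 bars) are about as many as those between targets, while 252 and 236 genes are called in all 4 pairs. The bar for the means sets 4 libraries against 4, and the bars for single siRNAs set 2 against 2.

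Against control, limma called 2684 genes (22.8%) for TMEM259 siRNA 5, 2282 (19.4%) for TMEM259 siRNA 6, 2660 (22.6%) for FIBP siRNA 6 and 4009 (34.1%) for FIBP siRNA 7, and where the controls lay differed between genes. Among the 252 genes higher in TMEM259 knockdown, 146 were lower than control with both FIBP siRNAs, and 31 were higher than control with both TMEM259 siRNAs. Among the 236 genes lower in TMEM259 knockdown, 62 were lower than control with both TMEM259 siRNAs, and 101 were higher than control with both FIBP siRNAs. The FIBP mean lay farther from control than the TMEM259 mean for 200 of the 252 (79.4%) and 141 of the 236 (59.7%), beside 57.0% of all genes tested. The share among the 236 was near that of all genes. Counts against control moved most without TMEM259 siRNA 6 replicate 1 (1080 for TMEM259 siRNA 6) and without control replicate 1 (1514 for TMEM259 siRNA 5). The targets share the same control libraries, so these counts place the genes and are not separate tests.

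Genes were ranked by the smallest of their 4 pair differences, and those ranked first as higher in TMEM259 than in FIBP knockdown came from varied functions. BCL2L15, a BCL2 family member, had 119 and 118 (siRNA 5) and 112 and 129.7 (siRNA 6) in TMEM259 knockdown, against 71.6 and 70.1 (siRNA 6) and 49.6 and 45.7 (siRNA 7) in FIBP knockdown, with 136 and 129 in control cells. All 4 FIBP libraries lay below the others and the TMEM259 libraries sat near control, for a log2 difference of 1.03 ± 0.11 (SE, adjusted p = 1.89e-10, limma). PCSK5, a proprotein convertase that cleaves secreted precursors, had 1581 and 1548 with TMEM259 siRNA 5, 1421 and 1485 with TMEM259 siRNA 6, 877 and 923 with FIBP siRNA 6, 641 and 541 with FIBP siRNA 7, and 1315 and 1424 in control cells. Its FIBP libraries were again the low ones, siRNA 7 more than siRNA 6, and the log2 difference was 1.05 ± 0.043 (SE, adjusted p = 1.07e-23, limma). The same arrangement, with both FIBP siRNAs called below control and the libraries of the targets not overlapping, held for the corepressor BCORL1 (log2 difference 0.92), the Rac exchange factor DOCK2 (0.82), the adherens junction protein PLEKHA7 (0.80), slow skeletal troponin T TNNT1 (0.72), the transcription factor FOXP2 (0.95), the fatty acid elongase ELOVL2 (0.66) and the beta-secretase BACE1 (0.71). FOXP2 was also called above control with TMEM259 siRNA 5 (0.65, adjusted p = 0.00874, limma) and not with TMEM259 siRNA 6 (0.0072). Its difference thus did not come from the FIBP side alone. DOCK2 gave 889 and 910.0 with TMEM259 siRNA 5, 1002 and 925 with TMEM259 siRNA 6, 564 and 592 with FIBP siRNA 6, 513 and 454 with FIBP siRNA 7, and 847 and 873 in control cells, and BACE1 gave 403 to 466 in TMEM259 knockdown, against 246 to 282 in FIBP knockdown and 383 to 405 in control cells. The levels of both in TMEM259 knockdown and control were close to each other, with all FIBP libraries below.

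A few of the largest differences came from the TMEM259 side. L1CAM, a neural cell adhesion molecule, had 99.5 and 82.5 (siRNA 5) and 65.9 and 86.5 (siRNA 6) in TMEM259 knockdown, against 45.8 and 47.5 (siRNA 6) and 53.7 and 38.6 (siRNA 7) in FIBP knockdown, with 44.5 and 48.2 in control cells. The 4 TMEM259 libraries lay above all 6 others, and FIBP libraries and controls overlapped (log2 difference 0.83 ± 0.14 SE, adjusted p = 6.80e-06, limma). RGL1, a Ral exchange factor, had 105 to 109.6 in TMEM259 knockdown, against 65.6 to 76.4 in FIBP knockdown and 61.5 to 87.9 in control cells, and both TMEM259 siRNAs were called above control (0.54 and 0.53). RIMS2, a scaffold of presynaptic release sites, differed by 0.85 ± 0.15 (SE, adjusted p = 1.27e-05, limma), with the control mean between the targets.

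Among genes lower in TMEM259 than in FIBP knockdown, DUSP5, a nuclear phosphatase of ERK, ranked first by the smallest of its 4 pair differences. Its signal was 104 and 104 with TMEM259 siRNA 5, 111 and 83.3 with TMEM259 siRNA 6, 181 and 173 with FIBP siRNA 6, 309 and 311 with FIBP siRNA 7, and 86.9 and 91.7 in control cells. TMEM259 libraries and controls overlapped and every FIBP library was higher, those of siRNA 7 most, for a log2 difference of -1.22 ± 0.094 (SE, adjusted p = 1.87e-14, limma). SEMA7A, a membrane-anchored semaphorin, had 690.5 and 700.2 (siRNA 5) and 679 and 627 (siRNA 6) in TMEM259 knockdown, against 981 and 1002 (siRNA 6) and 1683 and 1743 (siRNA 7) in FIBP knockdown, with 723 and 717 in control cells. Here too all FIBP libraries were the high ones, with siRNA 7 above siRNA 6 (log2 difference -0.95 ± 0.041 SE, adjusted p = 7.20e-23, limma). The sialyltransferase ST3GAL1 had 354 and 348 with TMEM259 siRNA 5, 338 and 353 with TMEM259 siRNA 6, 542 and 520.1 with FIBP siRNA 6, 521 and 481 with FIBP siRNA 7, and 323 and 329.9 in control cells. Its FIBP siRNAs were close to each other, TMEM259 libraries lay just above control, and the log2 difference was -0.56 ± 0.056 (SE, adjusted p = 3.20e-11, limma). Both FIBP siRNAs were also called above control for the cytokine signalling inhibitor SOCS3 (log2 difference between targets -0.72), the Rac GTPase activator ARHGAP22 (-0.86), the chromatin protein HMGA2 (-0.87), GFPT2 of the hexosamine pathway (-0.72), the polyamine acetyltransferase SAT1 (-0.74), the lipase inhibitor G0S2 (-0.85) and the microtubule-binding protein NAV3 (-0.62). HMGA2 (-0.43, adjusted p = 0.00864, limma) and G0S2 (-0.53, adjusted p = 1.00e-06, limma) were also called below control with TMEM259 siRNA 6, and not with siRNA 5. Their differences thus did not come from the FIBP side alone.

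EXOSC6 departed from control mainly on the TMEM259 side, and MMP1 on the sides of both targets. EXOSC6, a core subunit of the RNA exosome, had 98.0 and 84.9 with TMEM259 siRNA 5, 69.9 and 76.9 with TMEM259 siRNA 6, 139 and 130.0 with FIBP siRNA 6, 172 and 169 with FIBP siRNA 7, and 119.7 and 138 in control cells. Both TMEM259 siRNAs lay below control and the FIBP libraries at or above it, for a log2 difference of -0.88 ± 0.099 (SE, adjusted p = 9.82e-10, limma). EXOSC6 was called below control with both TMEM259 siRNAs (-0.49 and -0.80). It was also called above control with FIBP siRNA 7 (0.41, adjusted p = 0.0206, limma) and not with FIBP siRNA 6 (0.066). MMP1, the interstitial collagenase, had 50.5 and 56.6 (siRNA 5) and 34.9 and 44.0 (siRNA 6) in TMEM259 knockdown, against 106 and 114 (siRNA 6) and 71.7 and 105 (siRNA 7) in FIBP knockdown, with 69.9 and 76.6 in control cells. The TMEM259 libraries were the 4 lowest of the 10, and the difference was -1.08 ± 0.13 (SE, adjusted p = 9.53e-09, limma). Against control, MMP1 was called lower with TMEM259 siRNA 6 (-0.88) and higher with FIBP siRNA 6 (0.58). It was not called with TMEM259 siRNA 5 (-0.45) or FIBP siRNA 7 (0.24). MMP13, another collagenase and one chosen after its values were seen, had 36.5 to 54.9 in TMEM259 knockdown, against 71.0 to 111 in FIBP knockdown and 87.9 to 116 in control cells, with a log2 difference of -1.02 ± 0.13 (SE, adjusted p = 9.43e-09, limma). MMP13 was called below control with both TMEM259 siRNAs (-1.43 and -0.93).

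**Figure D3:**
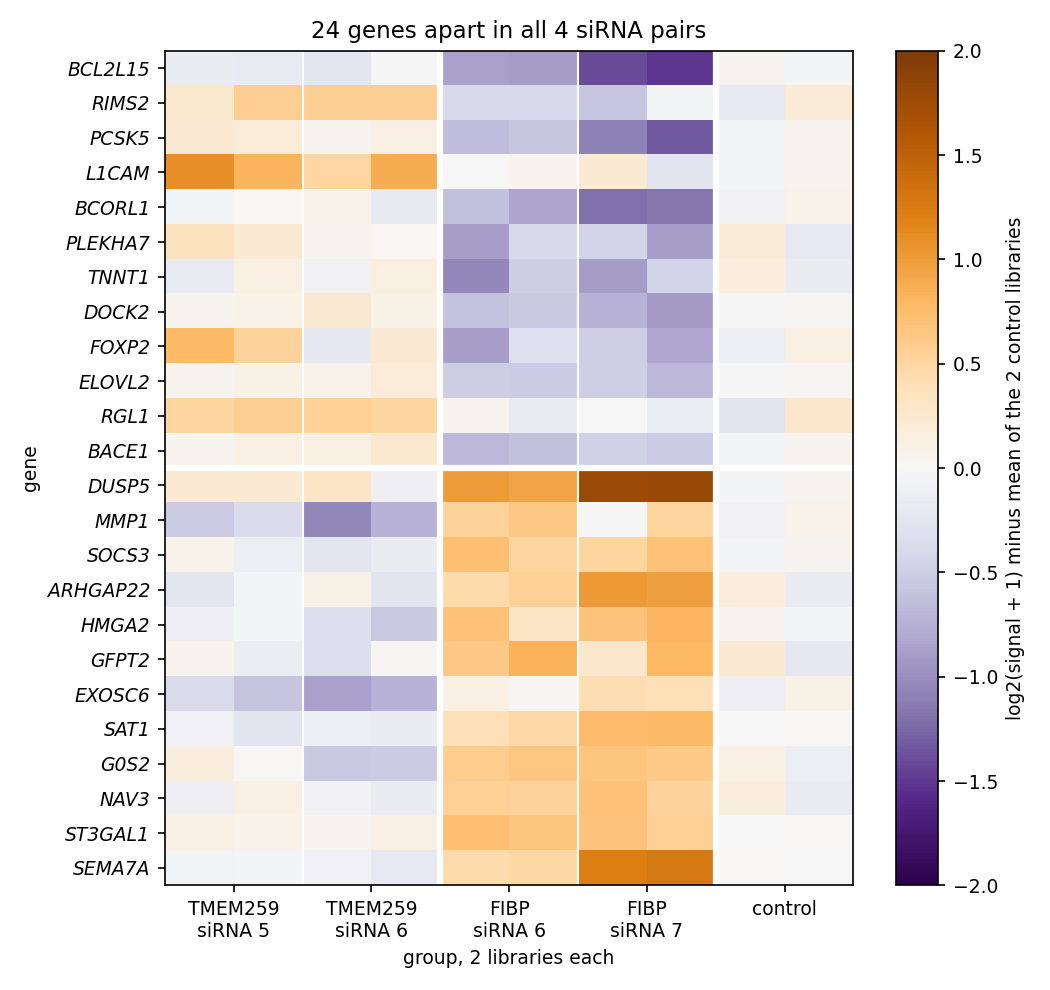
Log2 of normalized signal plus 1, relative to the mean of the 2 control libraries, for the 24 genes ranked first by the smallest of their 4 siRNA pair differences (12 higher above, 12 lower below) in every library. Most departures from control are in the FIBP columns, while L1CAM, RGL1 and EXOSC6 depart mainly in the TMEM259 columns and RIMS2 and MMP1 in both.

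In 6 genes both siRNAs of each target were called against control, in opposite directions. SLC44A2, a choline transporter-like protein, had 677 and 601 with TMEM259 siRNA 5, 517 and 542 with TMEM259 siRNA 6, 334 and 348 with FIBP siRNA 6, 369 and 399 with FIBP siRNA 7, and 466 and 439.6 in control cells. The TMEM259 libraries were above and the FIBP libraries below both controls, with no overlap (log2 difference 0.68 ± 0.055 SE, adjusted p = 8.09e-14, limma). TADA3, an adaptor subunit of the SAGA and ATAC histone acetyltransferase complexes, had 980.2 and 955 (siRNA 5) and 1033 and 988 (siRNA 6) in TMEM259 knockdown, against 634 and 702 (siRNA 6) and 726 and 700.3 (siRNA 7) in FIBP knockdown, with 779.8 and 853 in control cells. The same order held, and the difference was 0.52 ± 0.044 (SE, adjusted p = 5.58e-13, limma). The neuronal beta-tubulin TUBB3 (log2 difference 0.46) and the membrane protein TMEM54 (0.43) followed that order as well. TUBB3 overlaps a readthrough gene on the same strand, so its reads are less certain. The opposite order was found for TRIAP1, a small p53-regulated mitochondrial lipid carrier, and for ANAPC5, a subunit of the anaphase-promoting complex. TRIAP1 had 528 and 447 (siRNA 5) and 474 and 484 (siRNA 6) in TMEM259 knockdown, against 693 and 659 (siRNA 6) and 718 and 750.0 (siRNA 7) in FIBP knockdown, with 571 and 541 in control cells. ANAPC5 had 1954 and 1956 with TMEM259 siRNA 5, 2091 and 2162 with TMEM259 siRNA 6, 2512 and 2511 with FIBP siRNA 6, 2733 and 2654 with FIBP siRNA 7, and 2304 and 2319.8 in control cells. In both, TMEM259 libraries lay below and FIBP libraries above both controls, with log2 differences of -0.54 ± 0.052 (SE, adjusted p = 9.85e-12, limma) and -0.35 ± 0.031 (SE, adjusted p = 1.05e-12, limma).

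**Figure D4:**
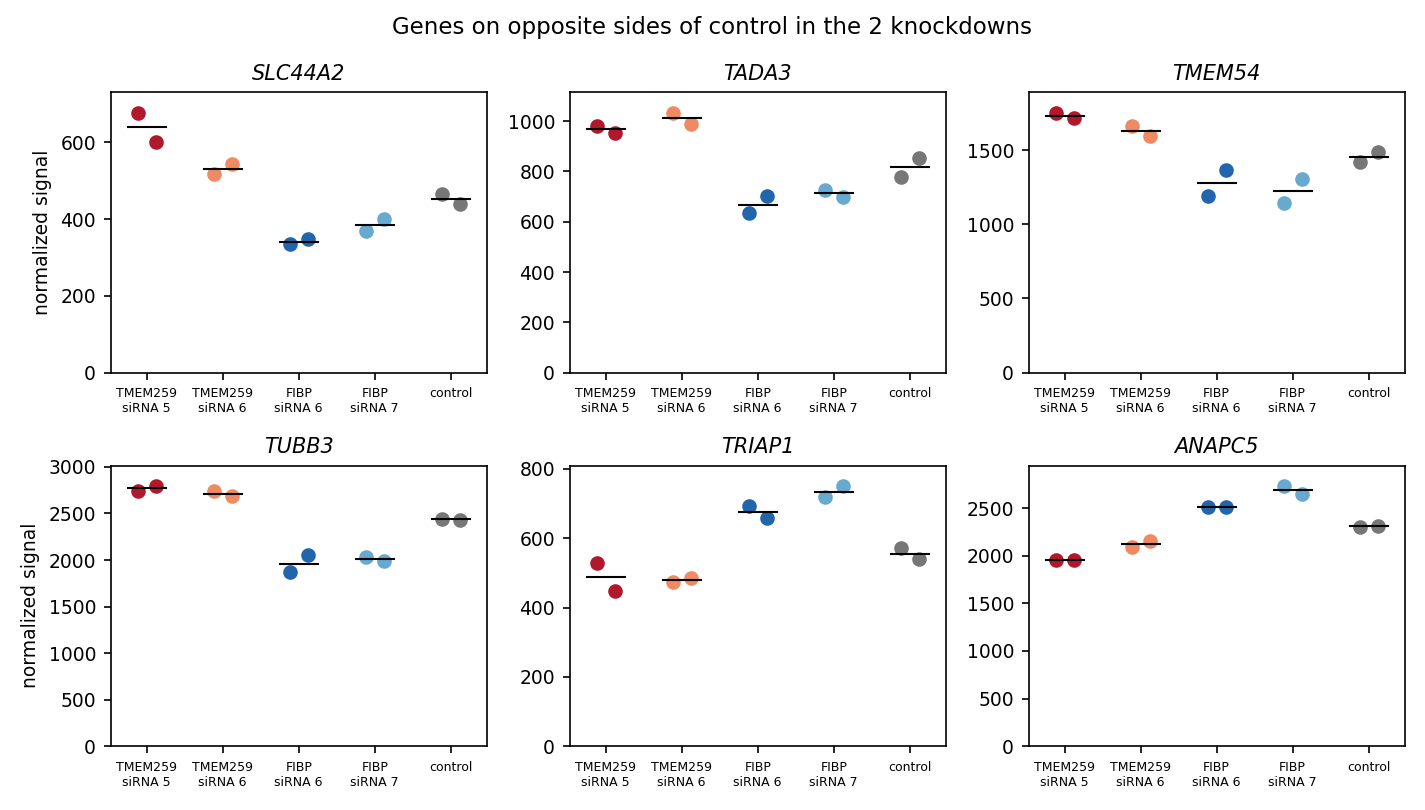
Normalized signal of the 6 genes that both siRNAs of each target moved from control in opposite directions, with points for libraries and bars for pair means. The control libraries lie between the targets in every panel.

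The lists of FGF signalling and of its output bear on the name of FIBP. Of 15 measured FGF ligands, receptors and coreceptors, 6 were higher and 5 lower by the means, with 2 higher and 1 lower in all 4 pairs and a list median of 0.012 beside -0.00058 over all genes. The receptor FGFR3 had 84.3 and 105 (siRNA 5) and 93.8 and 135 (siRNA 6) in TMEM259 knockdown, against 57.3 and 62.2 (siRNA 6) and 70.3 and 60.9 (siRNA 7) in FIBP knockdown, with 89.0 and 72.8 in control cells. The 4 TMEM259 libraries were above the 4 FIBP libraries and the controls overlapped the TMEM259 libraries, for a log2 difference of 0.71 ± 0.13 (SE, adjusted p = 1.26e-05, limma). The heparan sulfate coreceptors differed in opposite directions, with SDC2 higher (1345 to 1746 in TMEM259 knockdown, against 1083 to 1244 in FIBP knockdown and 1259 to 1353 in control cells; log2 difference 0.39) and GPC1 lower (1021 to 1047 in TMEM259 knockdown, against 1148 to 1334 in FIBP knockdown and 1059.7 to 1070.2 in control cells; -0.29). Among 29 adaptors and relay kinases, 8 were higher and 4 lower by the means, and only LRRC59, an ER protein that takes part in nuclear import of FGF1, was called in all 4 pairs (-0.15 ± 0.024 SE, adjusted p = 1.58e-06, limma). LRRC59 had 7327 and 7329 and then 7998 and 7842 in the libraries of TMEM259 siRNAs 5 and 6, against 8321 and 8581 and then 8411 and 8566 in those of FIBP siRNAs 6 and 7, and 7062 and 7162 in control cells. Every FIBP library was higher than every TMEM259 library, by a small margin with TMEM259 siRNA 6.

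ERK output and feedback genes were more often lower than higher in TMEM259 knockdown. Of 21 measured, 3 were higher and 12 lower by the means, with 1 higher and 2 lower in all 4 pairs and a median of -0.20. Shares over all genes were 18.8% higher and 18.3% lower by the means, and 2.14% and 2.01% in all 4 pairs. The median was -0.44 and -0.37 in the pairs with FIBP siRNA 7 (TMEM259 siRNAs 5 and 6), and -0.055 and -0.043 in those with FIBP siRNA 6. DUSP6, another ERK phosphatase, named here after its values were seen, had 22.3 and 36.5 (siRNA 5) and 30.9 and 28.8 (siRNA 6) in TMEM259 knockdown, against 42.0 and 29.4 (siRNA 6) and 71.7 and 77.1 (siRNA 7) in FIBP knockdown, with 28.6 and 35.0 in control cells. Its FIBP siRNA 7 libraries stood apart and the others overlapped, so that it was called for the means (log2 difference -0.79) and not in all 4 pairs. The ETS factor ETV4, also a later choice, was high with FIBP siRNA 7 (49.6 and 63.9, against 10.4 to 24.5 in TMEM259 knockdown, 22.0 and 19.2 with FIBP siRNA 6 and 31.8 and 21.7 in control cells). ETV4 was also low with TMEM259 siRNA 6, which was called below control (-1.22, adjusted p = 0.00264, limma) and below FIBP siRNA 6 (-0.88, adjusted p = 0.0237, limma). Besides DUSP5, the AP-1 subunit FOSL1 was lower in all 4 pairs, with 2087 and 2161 and then 2744 and 2429 in the libraries of TMEM259 siRNAs 5 and 6, against 2858 and 2767 and then 2863 and 2896 in those of FIBP siRNAs 6 and 7, and 2487 and 2447 in control cells. The TMEM259 libraries of siRNA 6 came close to the FIBP libraries without reaching them, and the difference was -0.28 ± 0.033 (SE, adjusted p = 2.65e-09, limma). FOSL1 lies near FIBP on chromosome 11, with 1 measured gene between them. The ephrin receptor EPHA4 went the other way, with 109.7 to 140.3 in TMEM259 knockdown, against 73.1 to 85.9 in FIBP knockdown and 76.3 to 92.6 in control cells (log2 difference 0.64 ± 0.11 SE, adjusted p = 6.63e-06, limma).

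In the lists of membralin's ERAD ligases and partners, of other ERAD factors and of the unfolded protein response, 1 of 24, 1 of 32 and 2 of 34 genes were called in all 4 pairs, beside 4.15% of all genes. Of 24 ligases and partners, 8 were higher and 6 lower by the means, with a median of 0.0092. UBE2J1, the membrane-anchored ubiquitin-conjugating enzyme of ERAD, alone was called in all 4 pairs, with 974 and 981 (siRNA 5) and 1159 and 1208 (siRNA 6) in TMEM259 knockdown, against 1399 and 1355 (siRNA 6) and 1404 and 1335 (siRNA 7) in FIBP knockdown, with 1129.5 and 1234 in control cells. Its TMEM259 libraries were below its FIBP libraries, siRNA 5 below control and siRNA 6 at control, for a log2 difference of -0.35 ± 0.039 (SE, adjusted p = 4.93e-10, limma). Of 32 ERAD lectins, channels and extraction factors, 4 were higher and 10 lower, and NGLY1, the cytosolic N-glycanase that strips glycans from extracted proteins, was called in all 4 pairs (438 to 475 in TMEM259 knockdown, against 524 to 575 in FIBP knockdown and 455 to 487 in control cells; log2 difference -0.29). Of 34 genes of the unfolded protein response, 6 were higher and 11 lower by the means, with a median of -0.051. PPP1R15A (GADD34), which directs dephosphorylation of eIF2alpha, had 531 and 479.7 with TMEM259 siRNA 5, 419 and 399 with TMEM259 siRNA 6, 694 and 605 with FIBP siRNA 6, 749.6 and 801 with FIBP siRNA 7, and 453 and 459 in control cells. The FIBP libraries were the 4 highest and the TMEM259 siRNAs lay on either side of control, with a log2 difference of -0.64 ± 0.053 (SE, adjusted p = 1.58e-13, limma). The chaperone cofactor SDF2L1 was lower as well (-0.28 ± 0.05 SE, adjusted p = 1.72e-05, limma). HSPA5 (BiP), the chief ER chaperone, differed by -0.15 for the means without passing in all 4 pairs.

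The promoter of PPP1R15A is shown because it holds the 8-base cyclic AMP response element TGACGTCA, in capitals, which 1.85% of 35116 RefSeq promoters hold on either strand (300 bases each, from 250 before to 50 after the start). The stretch is from RefSeq on GRCh38.p14 (chr19:48872352-48872381, plus strand). The match describes the letters and is not a measured site. This element and the one given below for cell cycle promoters were the 2 searched.
PPP1R15A: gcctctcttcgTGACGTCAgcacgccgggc

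Mitotic genes were mostly higher in TMEM259 than in FIBP knockdown, by small amounts. Of 43 measured, 26 were higher and 4 lower by the means, against 18.8% higher and 18.3% lower over all genes, with 4 higher and 1 lower in all 4 pairs. The list's median was 0.11 for the means. By pair, the median was 0.037 and 0.061 in the pairs of TMEM259 siRNAs 5 and 6 with FIBP siRNA 6, and 0.17 and 0.17 in those with FIBP siRNA 7. KIF23, the kinesin of the centralspindlin complex that acts in cytokinesis, had 2249 and 2181 with TMEM259 siRNA 5, 2308 and 2278 with TMEM259 siRNA 6, 1361 and 1428 with FIBP siRNA 6, 1660.5 and 1509 with FIBP siRNA 7, and 2286 and 2210.1 in control cells. TMEM259 knockdown and control overlapped and all FIBP libraries were lower, for a log2 difference of 0.60 ± 0.034 (SE, adjusted p = 1.16e-18, limma). PRC1, which bundles microtubules of the central spindle, had 6214 to 6575 in TMEM259 knockdown, against 5079 to 5548 in FIBP knockdown and 5777 to 5808 in control cells (0.25 ± 0.025 SE, adjusted p = 3.96e-11, limma). The scaffold ANLN (0.19) and the securin PTTG1 (0.17) were also higher in all 4 pairs. CENPA, the histone H3 variant of centromeres, went against the list, with 899 and 859 (siRNA 5) and 862 and 878 (siRNA 6) in TMEM259 knockdown, against 1084 and 993 (siRNA 6) and 1022 and 936 (siRNA 7) in FIBP knockdown, with 964 and 942 in control cells. Its 4 TMEM259 libraries were below the 4 FIBP libraries (-0.20 ± 0.042 SE, adjusted p = 1.33e-04, limma). Of 48 genes of DNA replication, 19 were higher and 4 lower by the means, and the cyclin CCNE2 (0.20) and the single-strand binding protein subunit RPA1 (0.15) were higher in all 4 pairs.

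Promoter stretches of KIF23, PRC1 and CENPA are shown because cell cycle promoters often hold a cell cycle homology region. Its letters TTTGAA, in capitals, were found on either strand in 25 of 36 promoters of the list's genes (69.4%) and in 15.2% of all 35116. The element is present both in genes that were higher and in CENPA, which was lower. The sequences are from RefSeq on GRCh38.p14, on the gene's strand (chr15:69414282-69414311, plus strand; chr15:90994538-90994567, minus strand; chr2:26786026-26786055, plus strand).
KIF23: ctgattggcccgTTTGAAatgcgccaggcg
PRC1: cccgtggcgcggTTTGAAattttgcggggc
CENPA: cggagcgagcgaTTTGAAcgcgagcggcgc

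Genes of p53 and growth arrest showed more members lower than higher in TMEM259 knockdown. Of 27, 4 were higher and 14 lower by the means, and TRIAP1 and PHLDA3 were lower in all 4 pairs, with a list median of -0.098. Shares over all genes were 18.8% higher and 18.3% lower by the means, and 2.01% lower in all 4 pairs. By pair, the median was 0.021 and -0.14 in the pairs of TMEM259 siRNAs 5 and 6 with FIBP siRNA 6, and -0.067 and -0.24 in those with FIBP siRNA 7. The sign of the median was thus not the same in every pair. PHLDA3, an inhibitor of AKT, had 762 and 721 (siRNA 5) and 699 and 686 (siRNA 6) in TMEM259 knockdown, against 907 and 994 (siRNA 6) and 907 and 915 (siRNA 7) in FIBP knockdown, with 731 and 778 in control cells. The FIBP libraries were above all others, and the difference was -0.38 ± 0.044 (SE, adjusted p = 2.56e-09, limma). CDKN1A (p21), the cyclin-dependent kinase inhibitor, differed by -0.38 for the means and did not pass in all 4 pairs, with log2 values against control of 0.28 and -0.23 for TMEM259 siRNAs 5 and 6 and 0.24 and 0.57 for FIBP siRNAs 6 and 7. Outside the lists and chosen after their values were seen, the BH3-only genes went opposite ways. PMAIP1 (NOXA) was lower (683 to 785 in TMEM259 knockdown, against 903 to 1089 in FIBP knockdown and 765 to 798 in control cells; log2 difference -0.48), and BCL2L11 (BIM) was higher (334 to 368 in TMEM259 knockdown, against 195 to 282 in FIBP knockdown and 283 to 326 in control cells; 0.60).

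By the means, many genes of sterol synthesis were higher in TMEM259 than in FIBP knockdown. Of 30 genes of cholesterol synthesis and uptake, 17 were higher and 0 lower by the means, with a median of 0.17, and only IDI1 passed in all 4 pairs. Shares over all genes were 18.8% higher and 18.3% lower by the means, and 4.15% in all 4 pairs (2.14% higher). By the rule on all 4 pairs, this list therefore did not stand out. By pair, the median was 0.22 and 0.097 in the pairs of TMEM259 siRNAs 5 and 6 with FIBP siRNA 6, and 0.22 and 0.11 in those with FIBP siRNA 7. IDI1, the isopentenyl diphosphate isomerase, had 911 and 843 (siRNA 5) and 869 and 882 (siRNA 6) in TMEM259 knockdown, against 779 and 763 (siRNA 6) and 696 and 668 (siRNA 7) in FIBP knockdown, with 823 and 909 in control cells. The TMEM259 libraries were at the level of control and the FIBP libraries below (0.27 ± 0.044 SE, adjusted p = 2.90e-06, limma). Among 27 genes of fatty acid metabolism, 10 were higher and 4 lower by the means, with 4 higher and 0 lower in all 4 pairs, among them the mitochondrial acyltransferase CPT1A (0.67 ± 0.14 SE, adjusted p = 1.05e-04, limma), the triglyceride lipase PNPLA2 (0.25 ± 0.043 SE, adjusted p = 6.99e-06, limma) and the desaturase FADS2 (0.22 ± 0.033 SE, adjusted p = 4.77e-07, limma). G0S2, the inhibitor of PNPLA2, was lower, with 528 and 475 and then 326 and 329.9 in the libraries of TMEM259 siRNAs 5 and 6, against 712 and 746 and then 752 and 726 in those of FIBP siRNAs 6 and 7, and 515 and 438 in control cells. Its 4 TMEM259 libraries lay below the 4 FIBP libraries, and those of TMEM259 siRNA 6 were the lowest.

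Targets of YAP and SRF, the actin-linked transcription programs, had 20 higher and 2 lower of 33 by the means, with a median of 0.14, and FHL2 and ZYX were higher in all 4 pairs. Shares over all genes were 18.8% higher and 18.3% lower by the means, and 2.14% higher in all 4 pairs. By pair, the median was 0.21 and 0.069 in the pairs of TMEM259 siRNAs 5 and 6 with FIBP siRNA 6, and 0.18 and 0.11 in those with FIBP siRNA 7. ZYX, a focal adhesion protein, had 4390.1 to 4883 in TMEM259 knockdown, against 3803 to 4032 in FIBP knockdown and 3903 to 3985 in control cells (0.23 ± 0.027 SE, adjusted p = 5.04e-09, limma). FHL2, a LIM-domain cofactor, had 3283 to 3520.1 in TMEM259 knockdown, against 2273 to 3096 in FIBP knockdown and 3619.5 to 3775 in control cells (0.36 ± 0.031 SE, adjusted p = 4.42e-13, limma). ZYX lay above control in every TMEM259 library, while FHL2 lay below control in the libraries of both targets, farther in those of FIBP knockdown. Among 37 matrix and mesenchymal genes, 11 were higher and 14 lower by the means. The matrix protein THBS1 was higher (8549 to 10595 in TMEM259 knockdown, against 6635 to 7885 in FIBP knockdown and 8312 to 8615 in control cells; log2 difference 0.44), while the transcription factor SNAI2 (Slug) was lower (196 to 274 in TMEM259 knockdown, against 329 to 373 in FIBP knockdown and 228 to 254 in control cells; -0.56). The activin subunit INHBA was lower (759.7 and 712 and then 487 and 556 in the libraries of TMEM259 siRNAs 5 and 6, against 1070.5 and 1039 and then 977 and 897 in those of FIBP siRNAs 6 and 7, and 768 and 807 in control cells; log2 difference -0.68 ± 0.046 SE, adjusted p = 3.89e-16, limma). All 4 of its TMEM259 libraries were below the FIBP libraries, and siRNA 6 was the lower of the TMEM259 siRNAs.

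Of 41 measured HIF and hypoxia targets, 13 were higher and 11 lower by the means, with 3 higher and 1 lower in all 4 pairs and a median of 0.08. Shares over all genes were 18.8% higher and 18.3% lower by the means, and 2.14% and 2.01% in all 4 pairs. EGLN3, the HIF prolyl hydroxylase that HIF itself induces, had 825 and 864 with TMEM259 siRNA 5, 913 and 869 with TMEM259 siRNA 6, 494 and 587 with FIBP siRNA 6, 739 and 692 with FIBP siRNA 7, and 1027 and 1015 in control cells. All knockdown libraries were below control, and FIBP siRNA 6 was the lowest (difference between targets 0.48 ± 0.047 SE, adjusted p = 2.67e-11, limma). The growth factor TGFA (2479 to 2921 in TMEM259 knockdown, against 1881 to 2126 in FIBP knockdown and 2805 to 3041 in control cells; 0.38) and ARNT2, a partner of HIF subunits (122 to 128 in TMEM259 knockdown, against 81.2 to 106 in FIBP knockdown and 108 to 130.3 in control cells; 0.44), were higher than in FIBP knockdown. JMJD6, a hydroxylase, was lower (-0.24). VEGFA, the angiogenic growth factor, differed by 0.16 for the means only. Among 26 genes of glycolysis, 9 were higher and 6 lower by the means, with the enolase ENO2 (1053 to 1101 in TMEM259 knockdown, against 641 to 939.8 in FIBP knockdown and 1129 to 1198 in control cells; 0.49) and the phosphofructokinase PFKP (0.13) higher in all 4 pairs. 

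Of 56 genes of oxidative phosphorylation, 3 were higher and 21 lower by the means, with a median of -0.071. Over all genes, 18.8% were higher and 18.3% lower by the means. By pair, the median was -0.085 and 0.011 in the pairs of TMEM259 siRNAs 5 and 6 with FIBP siRNA 6, and -0.16 and -0.038 in those with FIBP siRNA 7. CYC1, cytochrome c1 of complex III, had 3239.7 to 3685 in TMEM259 knockdown, against 3835 to 4129 in FIBP knockdown and 3635 to 3706 in control cells (-0.22 ± 0.032 SE, adjusted p = 2.61e-07, limma), and the ATP synthase subunit gene ATP5J was lower by a small amount (-0.13). The complex I subunit gene NDUFS3 was the one higher in all 4 pairs, with 608 and 693 with TMEM259 siRNA 5, 742 and 713 with TMEM259 siRNA 6, 507 and 552 with FIBP siRNA 6, 259 and 216 with FIBP siRNA 7, and 708 and 684 in control cells. Both FIBP siRNAs were below the TMEM259 libraries, siRNA 7 much more so, and the log2 difference of 0.96 ± 0.056 (SE, adjusted p = 2.29e-18, limma) rested largely on it, since the pairs with FIBP siRNA 6 gave 0.30 and 0.46 and those with FIBP siRNA 7 1.45 and 1.62.

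The series is about nuclear speckles, the nuclear bodies rich in splicing factors. Of 48 genes of speckle and SR proteins, 4 were higher and 9 lower by the means and 0 passed in all 4 pairs (limma), with a median of -0.016. Of 31 genes of mRNA export and the exon junction, 1 was higher and 8 lower by the means, and NCBP2, the small subunit of the nuclear cap-binding complex, was lower in all 4 pairs. NCBP2 had 1347 and 1275 (siRNA 5) and 1361 and 1441 (siRNA 6) in TMEM259 knockdown, against 1702 and 1598 (siRNA 6) and 1564 and 1579 (siRNA 7) in FIBP knockdown, with 1608 and 1703 in control cells. Its 4 TMEM259 libraries were below all 6 others, for a log2 difference of -0.25 ± 0.036 (SE, adjusted p = 3.99e-07, limma).

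**Figure D5:**
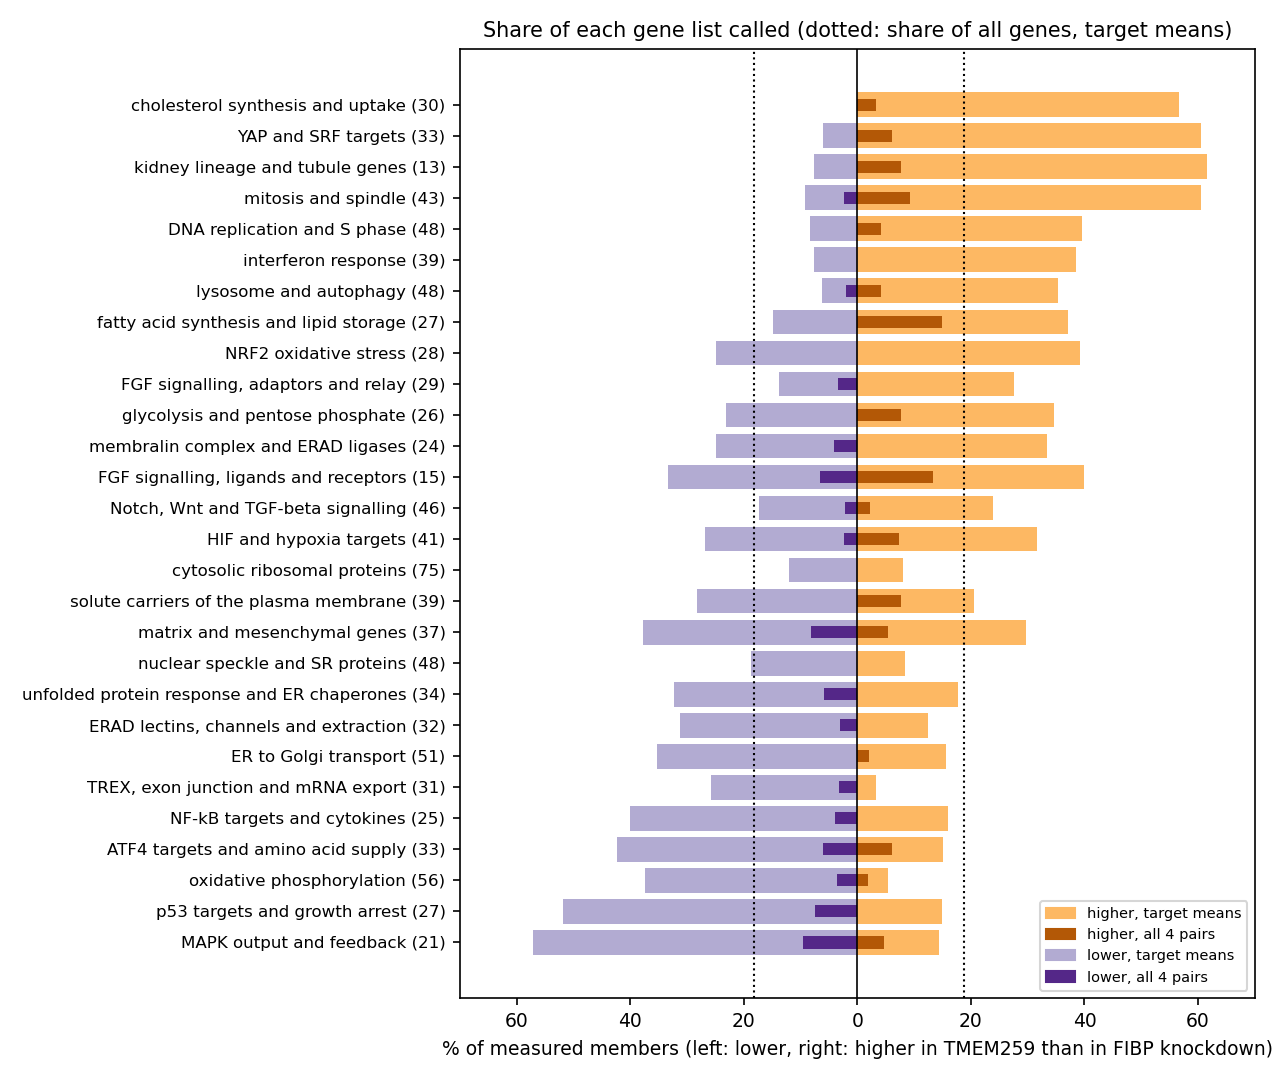
Share of the measured members of each gene list (number in brackets) called higher (right) or lower (left) in TMEM259 than in FIBP knockdown, by the means of the targets (wide bars) and in all 4 siRNA pairs (narrow bars). Dotted lines give the share of all genes called by the means, and kidney lineage, cholesterol, YAP and SRF and mitotic genes extend farthest to the right of it while MAPK output and p53 targets extend farthest to the left.

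Some of the largest differences between the means rested on 1 siRNA of a target more than on the other. EPPK1, a plakin of the keratin skeleton, had 153 and 127 with TMEM259 siRNA 5, 59.9 and 72.1 with TMEM259 siRNA 6, 50.6 and 39.6 with FIBP siRNA 6, 12.4 and 21.3 with FIBP siRNA 7, and 48.7 and 67.1 in control cells. TMEM259 siRNA 5 was high and FIBP siRNA 7 low, and the other siRNAs lay near control, so that the log2 difference of 1.78 was not called in all 4 pairs. SLC16A12, a creatine transporter of the monocarboxylate family, was also highest with TMEM259 siRNA 5 and lowest with FIBP siRNA 7 (281 and 206 with TMEM259 siRNA 5, 95.8 and 91.3 with TMEM259 siRNA 6, 81.2 and 70.1 with FIBP siRNA 6, 30.3 and 24.4 with FIBP siRNA 7, and 63.6 and 74.7 in control cells; log2 difference 1.70). EFHB, an EF-hand protein, was low with FIBP siRNA 7 (12.4 and 8.12, against 68.9 to 95.5 in TMEM259 knockdown; 1.64 between targets). The chromatin protein HMGA1 (-1.18), which has many processed pseudogenes, the exchange factor DOCK4 (-0.95) and EVI2A (-0.94), a membrane protein gene within an intron of NF1, were high with FIBP siRNA 7. EVI2A was also called below control with both TMEM259 siRNAs (-0.71 and -0.83 for siRNAs 5 and 6). Its TMEM259 mean lay farther from control (-0.77) than its FIBP mean (0.17). HMGA1 was also called below control with TMEM259 siRNA 5 (-0.74) and DOCK4 with TMEM259 siRNA 6 (-0.68). EFHB was called above control with TMEM259 siRNA 5 (0.66). ANGPTL4, a secreted lipase inhibitor chosen after its values were seen, gave the most negative difference of all genes tested (-2.01). It had 11.5 and 10.6 with TMEM259 siRNA 5, 5.99 and 4.80 with TMEM259 siRNA 6, 10.5 and 11.3 with FIBP siRNA 6, 88.2 and 122 with FIBP siRNA 7, and 10.6 and 8.51 in control cells. The FIBP siRNA 7 libraries stood far above the rest. Those of TMEM259 siRNA 6 were the lowest of the 10 (siRNA 5 minus siRNA 6 0.92, adjusted p = 0.048, limma). Genes called in all 4 pairs could also differ in size between siRNAs. MEGF6, an EGF-repeat protein gene named after its values were seen, had 649 and 687 (siRNA 5) and 648 and 702 (siRNA 6) in TMEM259 knockdown, against 581 and 562 (siRNA 6) and 71.7 and 88.3 (siRNA 7) in FIBP knockdown, with 778 and 745 in control cells. All FIBP libraries were below the TMEM259 libraries, but siRNA 6 by little and siRNA 7 by far. The mitochondrial peroxiredoxin PRDX3, also a later choice, had the same form (4922 to 5172 in TMEM259 knockdown, against 1252 to 4657 in FIBP knockdown and 4599 to 4839 in control cells).

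Genes next to a target were looked at after the data were seen, because FOSL1 lies beside FIBP. Of the 10 nearest measured genes of FIBP on chromosome 11 (5 on each side), 4 were called by the means and 2 in all 4 pairs, FOSL1 and C11orf68. C11orf68 had 634 and 664 (siRNA 5) and 609 and 594 (siRNA 6) in TMEM259 knockdown, against 848 and 908 (siRNA 6) and 808 and 808 (siRNA 7) in FIBP knockdown, with 792 and 755 in control cells. Its TMEM259 libraries lay below all 6 others, and the log2 difference was -0.43 ± 0.044 (SE, adjusted p = 1.05e-10, limma). Of the 10 nearest measured genes of TMEM259 on chromosome 19, 3 were called by the means and 0 in all 4 pairs (limma). Over all genes these shares were 37.1% by the means and 4.15% in all 4 pairs.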

How the data were processed

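Poly(A) RNA of 786-O cells was made into directional libraries and read as paired ends of 42 bases, per the labels' protocols. STAR, HTSeq, Picard, DESeq2 and the build hg19 are named in the submitters' processing notes, which give no version and no role; the annotation and the strand counted are not given in the sources used here. Each deposited value is a gene's normalized signal, its count divided by the authors by a size factor of the library; whole reads were recovered from it (100% of values whole at a tolerance of 0.0001) for gene reads and 2 alternatives. Entries that name no gene were left out; reads with no feature came to 5.66% to 6.07% as a share per library. Of 12140 genes, those with a mean of at least 10 were tested. Signal was log2-transformed after adding 1, which understates changes of low genes, and fitted with limma 3.58.1 (lmFit, contrasts.fit, eBayes with trend; R 4.3.3) with a mean for each of 5 groups of 2 libraries, two-sided, with Benjamini-Hochberg adjustment over all 11768 genes. A gene was called at an adjusted p below 0.05, and in all 4 pairs when each TMEM259 siRNA against each FIBP siRNA was called with 1 sign. Differences are log2 values of TMEM259 minus FIBP knockdown with the SE of the model.

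Named genes were the targets; up to 12 genes in each direction with a mean of at least 50, called in all 4 pairs without overlap of libraries, ranked by the smallest of the 4 differences; up to 3 members per list called in all 4 pairs, of any mean and ranked the same way; up to 6 in each direction on opposite sides of control; and up to 3 in each direction with the largest difference called for the means only. The text gives a selection of the 84 genes this rule names, and marks other genes as chosen after their values were seen, apart from members of lists. Members and lists were chosen with earlier results of these data known, so counts in lists are not independent evidence. Every list count is to be read beside the shares over all genes. These were 18.8% higher and 18.3% lower by the means, and 4.15% in all 4 pairs. The fit was repeated on recovered reads with DESeq2 1.42.0 and with edgeR 4.0.16 (TMM), and in limma after quantile normalization, with a filter at 50 or none, with 5 added in place of 1, without control libraries, with a replicate block, with 1 mean per siRNA and without each library in turn. The scripts were tested on simulated data. Without the strand counted, reads of overlapping genes are uncertain; in GENCODE, 27 of the 84 genes overlap another protein-coding gene, TMEM259, FIBP, L1CAM, BACE1, NDUFS3, PRC1 and CENPA among them.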

Additional observations from a re-analysis of the deposited data

Results flagged for a closer look

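Some genes called in all 4 siRNA pairs (limma, adjusted p below 0.05) were also called against the shared control libraries with all 4 siRNAs. Of the 252 genes higher in TMEM259 knockdown, 1 was above and 4 were below control with all 4 siRNAs. Of the 236 genes lower in TMEM259 knockdown, 7 were above and 2 below control with all 4. In 6 further genes the directions were opposite for the targets. The call in all 4 pairs was a condition of choosing these genes and adds no support. The log2 difference of TMEM259 minus FIBP knockdown was 0.68 for SLC44A2, 0.52 for TADA3, 0.43 for TMEM54 and 0.46 for TUBB3, which were above control with both TMEM259 siRNAs and below it with both FIBP siRNAs. It was -0.54 for TRIAP1 and -0.35 for ANAPC5, which were below control with both TMEM259 siRNAs and above it with both FIBP siRNAs. Against control, SLC44A2 gave 0.49 and 0.23 with TMEM259 siRNAs 5 and 6, and -0.41 and -0.24 with FIBP siRNAs 6 and 7. TMEM54 gave 0.26 and 0.17 with TMEM259 siRNAs 5 and 6, and -0.19 and -0.25 with FIBP siRNAs 6 and 7. Its 4 TMEM259 libraries (1595 to 1753) did not overlap its 4 FIBP libraries (1144 to 1366). TUBB3 had 2688 to 2792 in TMEM259 knockdown, against 1867 to 2056 in FIBP knockdown, and 2432 to 2446 in control cells. The targets are set against the same 2 control libraries.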

How the results depend on the processing

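Of 1511 values of the 84 named genes (the difference between the means) over 18 alternatives, the one with 1 mean per siRNA apart, 1510 kept their direction and their side of the threshold. The exception was VIM, whose log2 difference was 0.12 and became -0.061 under quantile normalization. Apart from the targets, the 84 genes were chosen for calls in the same libraries. This check covers the call for the means and not the call in all 4 pairs. With 1 mean per siRNA as the unit, limma called 0 genes higher and 0 lower after adjustment, and none of the 84 kept its call: the targets had the same log2 differences, -1.47 for TMEM259 (adjusted p = 0.540) and 2.62 for FIBP (adjusted p = 0.0735). This alternative leaves 2 values against 2, so the calls above hold for these siRNAs and libraries. DESeq2 called fewer genes, 127 higher and 107 lower in all 4 pairs (each of them also called by limma), 1520 higher and 1418 lower for the means, 2424 between the TMEM259 siRNAs and 2624 between the FIBP siRNAs, and, against control, 1552 and 1246 for TMEM259 siRNAs 5 and 6 and 1544 and 2515 for FIBP siRNAs 6 and 7. edgeR called 271 higher and 240 lower in all 4 pairs. Leaving out each library in turn gave 164 to 247 genes higher and 163 to 228 lower in all 4 pairs, the fewest without FIBP siRNA 6 replicate 1, and 1890 to 2159 higher and 1844 to 2104 lower for the means. It gave 2429 to 3895 between the TMEM259 siRNAs, the fewest without TMEM259 siRNA 6 replicate 1, and 3115 to 4179 between the FIBP siRNAs. Against control it gave 1514 to 2831 (TMEM259 siRNA 5, 1514 without control replicate 1 and 1757 without its own replicate 2), 1080 to 2423 (TMEM259 siRNA 6, 1080 without its own replicate 1, 1326 and 1362 without control replicates 1 and 2), 1669 to 2791 (FIBP siRNA 6, 1669 without its own replicate 1 and 1730 without control replicate 1) and 2940 to 4068 (FIBP siRNA 7), and the targets' own differences were -1.49 to -1.45 and 2.53 to 2.71. A lone library left in a group is assumed to vary like the other groups. The replicate numbers did not pair the libraries (correlation of deviations -0.044 to 0.055), and a replicate block gave 235 higher and 219 lower in all 4 pairs. Depth limits the low genes most in FIBP siRNA 7 replicate 1, the library with the fewest gene reads (8966609).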

Other observations

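Interferon-stimulated genes were higher in TMEM259 than in FIBP knockdown for 15 and lower for 3 of 39 measured by the means, with a median of 0.12, and 0 were called in all 4 pairs (limma). Shares over all genes were 18.8% higher and 18.3% lower by the means, and 4.15% in all 4 pairs. The list's median was 0.16 and 0.44 for TMEM259 siRNA 5 and -0.19 and 0.042 for TMEM259 siRNA 6, each against FIBP siRNA 6 and then siRNA 7, so its sign differed between siRNA pairs. NF-kB targets and cytokines likewise gave -0.32 and 0.35 for TMEM259 siRNA 5, and -0.71 and -0.0013 for TMEM259 siRNA 6. The chemokine CXCL3 alone of that list was called in all 4 pairs, with 11.0 to 22.3 in TMEM259 knockdown, against 30.5 to 45.5 in FIBP knockdown. Its FIBP libraries were the highest of the 10 (-1.10 ± 0.23 SE, adjusted p = 1.15e-04, limma).

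Lysosome and autophagy genes counted 17 higher and 3 lower of 48 by the means, with a median of 0.066. Shares over all genes were 18.8% higher and 18.3% lower by the means. The acid alpha-glucosidase GAA was higher (74.9 to 93.7 in TMEM259 knockdown, against 38.2 to 56.8 in FIBP knockdown and 57.2 to 66.2 in control cells; log2 difference 0.70), and the alpha-galactosidase GLA was lower (601 to 652 in TMEM259 knockdown, against 763 to 825 in FIBP knockdown and 712 to 750.2 in control cells; -0.34). The bicarbonate cotransporter SLC4A7 had 799 and 802 with TMEM259 siRNA 5, 815 and 828 with TMEM259 siRNA 6, 496 and 505 with FIBP siRNA 6, 605 and 596 with FIBP siRNA 7, and 598 and 620.1 in control cells. Its TMEM259 libraries lay above all 6 others (0.56 ± 0.045 SE, adjusted p = 7.66e-14, limma), and the anion exchanger SLC4A2 was also higher (0.18). The amino acid transporter SLC7A5 was higher (14273 to 18936 in TMEM259 knockdown, against 11164 to 13014 in FIBP knockdown and 14596 to 15254 in control cells; 0.44), while the glycyl-tRNA synthetase GARS was lower (3710.0 to 4247 in TMEM259 knockdown, against 4604 to 5442 in FIBP knockdown and 4509.6 to 4583 in control cells; -0.34). Cytosolic ribosomal protein genes had 6 higher and 9 lower of 75 by the means and 0 in all 4 pairs (limma), with a median of -0.0096. ER to Golgi transport had 8 higher and 18 lower of 51, with a median of -0.02. Its coat GTPase SAR1A was higher in all 4 pairs (2255 to 2401 in TMEM259 knockdown, against 1606 to 1824 in FIBP knockdown and 2142 to 2191 in control cells; 0.47 ± 0.033 SE, adjusted p = 7.72e-16, limma). The arrestin-family genes TXNIP (849 to 1053 in TMEM259 knockdown, against 1206 to 1689 in FIBP knockdown and 921 to 1061 in control cells; log2 difference -0.59) and ARRDC4 (156 to 214 in TMEM259 knockdown, against 263 to 289 in FIBP knockdown and 235 to 273 in control cells; -0.55), chosen after their values were seen, were both lower.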
